A study of Mus musculus with 6 samples.

Results

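The genes Tpsb2, Mcpt1, Mcpt2, Mcpt4, Cma1, Cpa3, Fcer1a, Ms4a2, Hdc and Prss34, whose products are made chiefly by mast cells and basophils, were followed in RNA-seq libraries of mouse small-intestinal cells. They were taken by symbol, each from 1 Ensembl identifier, and made up 10 of the 55401 genes in the deposited count table. The groups were 3 libraries of PEox-treated cells and 3 of Vehicle-treated cells, all labelled as group 3 innate lymphoid cells (ILC3s) of wild type mice, taken from the lamina propria of the small intestine. ILC3s are lymphocytes that lack antigen receptors and release interleukin 22. PEox is not spelled out in the labels; in ferroptosis research it usually stands for oxidised phosphatidylethanolamine. Dose, exposure time, age and the number of animals per library are not given in the sources used here, although the protocol text speaks of pups. That text describes a sort of epithelial cells that carry EpCAM and lack CD45, which goes against the cell type label. Whether each library stems from its own animal is not stated, so a p-value here reflects the scatter among these 6 libraries alone, which may be technical.

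Mast cells are tissue-resident granulocytes that store histamine and proteases in granules and release them when IgE bound to their surface is cross-linked by antigen. Mucosal mast cells of the mouse intestine are known for the chymases Mcpt1 and Mcpt2, and connective tissue mast cells for Cma1, Mcpt4 and the tryptase Tpsb2. Basophils are circulating granulocytes with the same IgE receptor and histamine, and Prss34 is one of their proteases. Neither cell type belongs to the ILC lineage.

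In the PEox libraries 6 of the 10 genes fell and none rose, at an adjusted p under 0.05 (edgeR quasi-likelihood test over all 18253 genes tested; all 10 passed the filter on low counts). For comparison, 18.8% of all tested genes were lower and 18.3% higher in PEox by the same rule, 37.1% in either direction. The median log2 fold change of the 10 genes was -1.82, and that of all tested genes was 0.00. All 3 PEox libraries lay below all 3 Vehicle libraries for 8 of the 10 genes, where this held for 26.5% of all tested genes. For Mcpt1 this held with the TMM scaling used here but not in raw counts, at 52 in PEox library 3 and 51 in Vehicle library 2. The 10 genes summed to 28.5, 21.7 and 28.6 CPM (counts scaled to a common library depth) in PEox libraries 1 to 3, against 164, 161.6 and 166.8 CPM in Vehicle libraries 1 to 3. The PEox mean was 16.0% of the Vehicle mean. These genes were rare in both groups, at 0.00227% to 0.00301% of all counts of a PEox library and 0.0154% to 0.0160% of a Vehicle library. In such bulk libraries, fewer mast cells or basophils and less RNA per cell cannot be told apart.

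**Figure D1:**
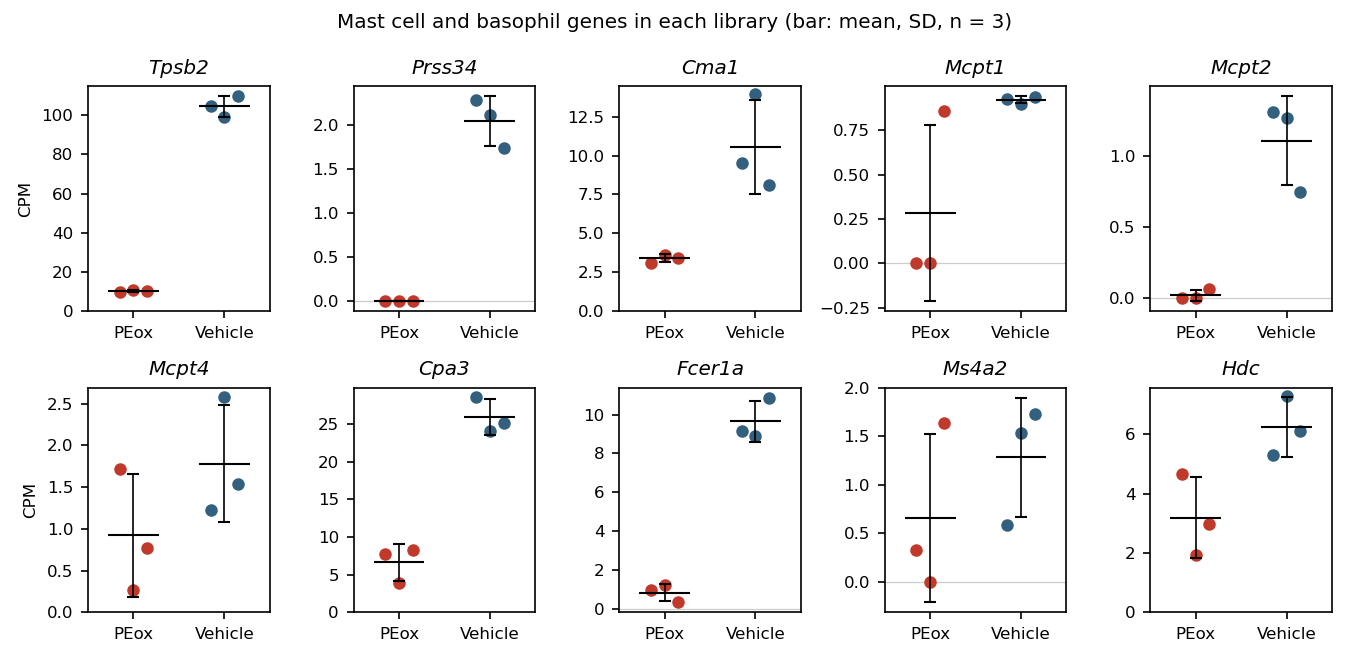
Level of each of the 10 genes in CPM (vertical axis, linear, its own scale per gene) in the PEox (red) and Vehicle (blue) libraries; each point is a library, the long bar the mean and the error bar the SD of 3 libraries. Tpsb2 sits near 10 CPM in PEox and near 105 CPM in Vehicle, Prss34 has no count in PEox, and the points of Mcpt4 and Ms4a2 overlap between the groups.

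The 250 bases upstream of the annotated starts are shown for genes that fell (Cpa3, Fcer1a, Cma1, Prss34) and for a pair of chymase genes of 1 cluster that did not pass the test (Mcpt1, Mcpt4). RefSeq windows (build GRCm38.p6) were at hand for 8 of the 10 genes, and the build behind the counts was not given in the sources used here. Sequences run 5′ to 3′ on the strand of the gene, and capitals mark the core GATAA of sites bound by GATA factors, on either strand (TTATC on the other), and the E-box CANNTG, which reads alike on both strands. GATA2 and the E-box binding factor MITF are known regulators of mast cells.
Cpa3, chr3:20242182-20242431, minus strand: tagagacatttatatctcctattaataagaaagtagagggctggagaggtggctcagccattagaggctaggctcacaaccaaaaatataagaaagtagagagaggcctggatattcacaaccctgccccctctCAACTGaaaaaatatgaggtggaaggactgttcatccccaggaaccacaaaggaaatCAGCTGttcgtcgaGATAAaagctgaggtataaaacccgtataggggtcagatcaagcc
Fcer1a, chr1:173227230-173227479, minus strand: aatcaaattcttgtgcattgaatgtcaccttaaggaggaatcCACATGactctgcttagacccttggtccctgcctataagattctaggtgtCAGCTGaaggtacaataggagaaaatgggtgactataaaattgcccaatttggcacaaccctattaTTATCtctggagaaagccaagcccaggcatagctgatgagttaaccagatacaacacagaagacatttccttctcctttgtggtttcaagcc
Cma1, chr14:55944676-55944925, minus strand: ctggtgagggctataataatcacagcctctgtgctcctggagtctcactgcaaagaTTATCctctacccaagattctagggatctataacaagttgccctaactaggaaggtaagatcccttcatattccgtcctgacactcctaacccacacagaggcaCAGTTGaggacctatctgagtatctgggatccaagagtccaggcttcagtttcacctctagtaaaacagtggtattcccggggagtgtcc
Prss34, chr17:25298144-25298393, plus strand: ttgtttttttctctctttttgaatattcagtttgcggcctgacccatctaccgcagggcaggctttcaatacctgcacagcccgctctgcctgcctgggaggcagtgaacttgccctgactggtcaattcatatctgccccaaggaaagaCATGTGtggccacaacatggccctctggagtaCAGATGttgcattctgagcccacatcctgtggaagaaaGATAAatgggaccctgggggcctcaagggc
Mcpt1, chr14:56017714-56017963, plus strand: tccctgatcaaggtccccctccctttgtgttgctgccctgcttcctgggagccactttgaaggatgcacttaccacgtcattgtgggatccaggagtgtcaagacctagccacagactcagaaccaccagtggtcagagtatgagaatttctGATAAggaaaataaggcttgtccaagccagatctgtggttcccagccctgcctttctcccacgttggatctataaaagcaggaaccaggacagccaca
Mcpt4, chr14:56062311-56062560, minus strand: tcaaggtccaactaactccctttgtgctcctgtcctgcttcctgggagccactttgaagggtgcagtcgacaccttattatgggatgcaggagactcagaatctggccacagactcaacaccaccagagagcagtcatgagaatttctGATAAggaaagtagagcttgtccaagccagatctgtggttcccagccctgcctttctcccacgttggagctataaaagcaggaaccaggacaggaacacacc
GATAA lay in the windows of 7 of these 8 genes, with Hdc, not shown, the one without it, and in 22.6% of all 32851 windows of this length. CANNTG lay in 5 of the 8 and in 66.2% of all windows. No site of one motif overlapped a site of the other in the windows printed. The GATAA of Cpa3 stood at positions -45 to -41 from the annotated start, that of Prss34 at -30 to -26 and that of Mcpt1 at -98 to -94. The windows of Mcpt1 and Mcpt4 were identical at 86.4% of 242 aligned bases. These letter matches describe the sequence and do not show binding.

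Tryptases and the carboxypeptidase, the bulk of granule protein in mast cells, held most of the signal. Tpsb2, a tryptase stored in granules on heparin, had 580, 640 and 615 counts in PEox libraries 1 to 3 and 6671, 5616 and 6907 counts in Vehicle libraries 1 to 3. The PEox libraries were close to one another and all far below Vehicle. Its level was 10.3 ± 0.50 CPM in PEox and 104.6 ± 5.42 CPM in Vehicle (SD, n = 3 each), or in log2 fold change -3.35 ± 0.08 (SE; adjusted p by edgeR = 3.79e-07). Cpa3, a carboxypeptidase that trims peptides in the granule, had 460, 228 and 503 counts in PEox and 1819, 1366 and 1582 in Vehicle. PEox library 2 was the lowest, and the groups did not overlap. Cpa3 averaged 6.66 ± 2.44 CPM in PEox and 26.0 ± 2.38 CPM in Vehicle (SD, n = 3 each), or -1.96 in log2 fold change (SE 0.27; adjusted p by edgeR = 0.000736).

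Prss34, a tryptase-like protease of basophils, had no count in any PEox library, against 145, 120 and 109 counts in Vehicle. Its Vehicle level was 2.04 ± 0.28 CPM (SD, n = 3). Against a floor of 3 counts per PEox library, Prss34 was at least 40.5-fold lower in PEox (adjusted p by edgeR = 0.000262). Such a floor covers counting error only.

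Chymases are proteases that mostly cut after aromatic residues, though not every member does. Cma1, the alpha-chymase, had 183, 213 and 208 counts in PEox and 607, 791 and 511 in Vehicle, with no overlap. It averaged 3.38 ± 0.25 CPM in PEox and 10.5 ± 3.03 CPM in Vehicle (SD, n = 3 each), or in log2 fold change -1.64 ± 0.24 (SE; adjusted p by edgeR = 0.00101). Mcpt2 had 0, 0 and 4 counts in PEox against 83, 72 and 47 in Vehicle, and fell (log2 fold change -5.51 ± 1.24, SE; adjusted p by edgeR = 0.00868). That value rests on the 4 counts of PEox library 3, without which both remaining PEox libraries were at 0 and the fitted value was -9.06, which is no bound. Over the omission of each library the adjusted p of Mcpt2 reached at most 0.0455. Mcpt1, its mucosal partner, had 0, 0 and 52 counts in PEox against 59, 51 and 59 in Vehicle. In raw counts PEox library 3 thus exceeded Vehicle library 2, while the other 2 PEox libraries had no count. In CPM PEox library 3 lay just below Vehicle, at 0.859 against 0.899 to 0.938. Mcpt1 did not pass the test, at -1.68 ± 1.56 (SE; adjusted p by edgeR = 0.467), and without PEox library 3 it did (adjusted p = 0.00254). Mcpt4 had 101, 16 and 47 counts in PEox and 78, 146 and 97 in Vehicle. Its groups overlapped, since PEox library 1 exceeded Vehicle library 1, and its log2 fold change of -0.95 ± 0.66 (SE) did not pass (adjusted p by edgeR = 0.316). Without PEox library 1 that value was -1.76 (adjusted p = 0.068).

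The IgE receptor is built of alpha, beta and gamma chains. Fcer1a, the chain that binds IgE, had 57, 72 and 21 counts in PEox and 583, 506 and 684 in Vehicle, with every PEox library far below Vehicle and library 3 the lowest. It averaged 0.845 ± 0.45 CPM in PEox and 9.66 ± 1.06 CPM in Vehicle (SD, n = 3 each), or in log2 fold change -3.51 ± 0.42 (SE; adjusted p by edgeR = 0.000356). Ms4a2, the beta chain that amplifies the signal, had 19, 0 and 99 counts in PEox and 37, 87 and 109 in Vehicle. Those groups overlapped, because PEox library 3 exceeded Vehicle libraries 1 and 2. Ms4a2 did not pass at -0.97 ± 1.25 (SE; adjusted p by edgeR = 0.61), and without PEox library 3 its value was -2.97 (adjusted p = 0.135). The gamma chain gene Fcer1g, which many myeloid and innate lymphoid cells also use, was abundant at 812.1 ± 11.5 CPM in PEox and 1386 ± 20.9 CPM in Vehicle (SD, n = 3 each). Fcer1g fell by 0.77 in log2 terms (adjusted p by edgeR = 2.58e-06), and by 0.16 after each library's trend on transcript length and GC content was removed (adjusted p = 0.0069).

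Hdc, the enzyme that makes histamine from histidine, had 274, 114 and 181 counts in PEox and 336, 414 and 385 in Vehicle. All PEox libraries were lower, with library 1 the nearest to Vehicle. Hdc averaged 3.19 ± 1.38 CPM in PEox and 6.24 ± 1.01 CPM in Vehicle (SD, n = 3 each), and its log2 fold change of -0.97 ± 0.33 (SE) missed the threshold (adjusted p by edgeR = 0.0526). It passed with DESeq2 (adjusted p = 0.0256), with a filter of 1 CPM in 3 libraries (0.0317) and without PEox library 1 (0.0118). Under the other alternatives Hdc did not pass. Adjusted p by edgeR was 0.0857 under library size scaling, 0.116 with the length and GC trend removed, and 0.173 without Vehicle library 2.

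Levels of different genes were compared per kilobase of transcript. In Vehicle the order on this scale, as CPM per kb (mean ± SD, n = 3), was Tpsb2 at 81.2 ± 4.20, Cpa3 at 17.9 ± 1.64, Fcer1a at 9.68 ± 1.06, Cma1 at 9.67 ± 2.78, Hdc at 2.61 ± 0.42, Prss34 at 1.68 ± 0.23, Mcpt4 at 1.61 ± 0.64, Mcpt2 at 1.04 ± 0.29, Mcpt1 at 0.909 ± 0.02 and Ms4a2 at 0.537 ± 0.26. Fcer1a and Cma1 lay within their spread of each other, as did Prss34 and Mcpt4, Mcpt4 and Mcpt2, and Mcpt2 and Mcpt1. The same held for Hdc and Mcpt4 and for Mcpt2 and Ms4a2. In PEox, Tpsb2 led at 7.98 ± 0.38 CPM per kb, followed by Cpa3 at 4.60 ± 1.69 and Cma1 at 3.10 ± 0.23 (SD, n = 3 each). Cpa3 and Cma1 overlapped within their spread there. Hdc at 1.33 ± 0.57, Fcer1a at 0.846 ± 0.45 and Mcpt4 at 0.832 ± 0.66 came next, also within their spread of each other. Mcpt1, Ms4a2, Mcpt2 and Prss34 averaged below 0.3 CPM per kb. The spread of Mcpt1 (SD 0.49) and Ms4a2 (SD 0.36) reached into that of Fcer1a and Mcpt4.

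Tpsb2 made up 37.3%, 50.5% and 38.1% of the summed level per kilobase of the 10 genes in PEox libraries 1 to 3, against 64.3%, 61.5% and 66.2% in Vehicle libraries 1 to 3. Cma1 made up 13.9%, 19.9% and 15.3% in PEox and 6.91%, 10.2% and 5.79% in Vehicle. The PEox mean as a percentage of the Vehicle mean was 9.83% for Tpsb2, 8.75% for Fcer1a, 25.7% for Cpa3, 32.1% for Cma1 and 51.2% for Hdc, was 1.99% for Mcpt2, and ran from 31.1% to 51.7% for Mcpt1, Ms4a2 and Mcpt4. Without Tpsb2 the other 9 genes summed to 16.0 ± 4.41 CPM in PEox and 59.5 ± 2.88 CPM in Vehicle (SD, n = 3 each), so that PEox stood at 26.8% of Vehicle.

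**Figure D2:**
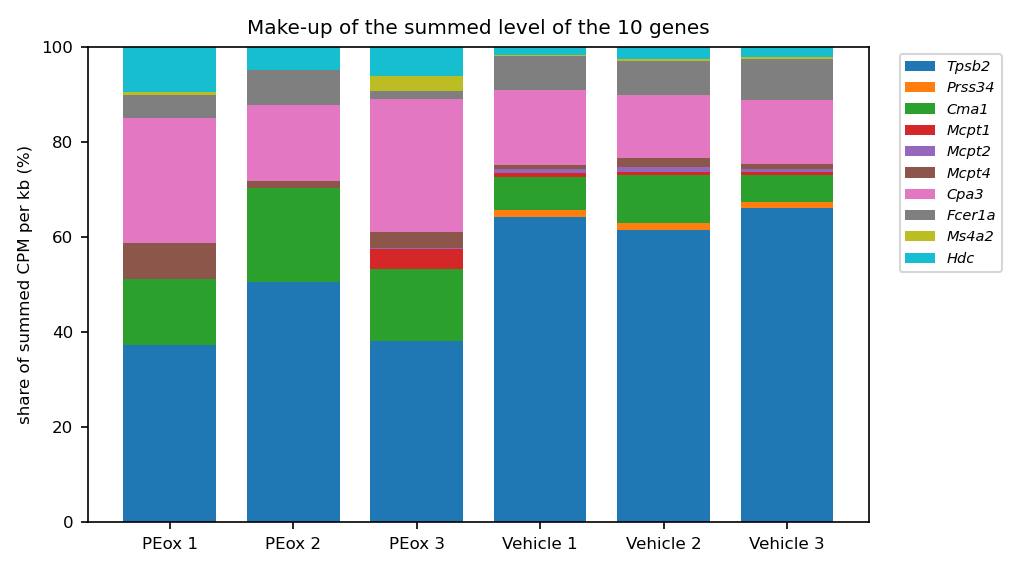
Share of each gene in the summed CPM per kilobase of the 10 genes (vertical axis, %) for the PEox libraries and the Vehicle libraries, 1 bar per library. Tpsb2 takes 37.3% to 50.5% of the PEox bars and 61.5% to 66.2% of the Vehicle bars, and the shares of Cma1 and Hdc are larger in PEox.

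Ratios of counts within a library, which no scaling of libraries can move, were set against Tpsb2 for 7 genes chosen after their values were seen. The log2 ratio of Cma1 to Tpsb2 was -1.61 ± 0.05 in PEox and -3.35 ± 0.47 in Vehicle, and that of Hdc to Tpsb2 was -1.78 ± 0.70 in PEox and -4.08 ± 0.28 in Vehicle (SD, n = 3 each). For Cpa3 it was -0.70 ± 0.68 in PEox and -2.01 ± 0.13 in Vehicle (SD, n = 3 each). None of these ranges overlapped, and each gave p = 0.1 in a two-sided exact permutation test, the smallest that 3 libraries against 3 allow (adjusted p = 0.175 over the 7 ratios). Fcer1a over Tpsb2 was -3.79 ± 0.94 in PEox and -3.44 ± 0.09 in Vehicle (SD, n = 3 each; exact permutation p = 0.9, adjusted p = 0.9), with overlap.

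The tryptase genes Tpsb2 and Prss34 lie in 1 cluster on chromosome 17, which also holds Tpsab1 and Tpsg1. All 4 genes of the cluster with a count were lower in PEox, and Prss28 and Prss29, between them, had no count. Tpsab1, which RefSeq annotates as a transcribed pseudogene in the reference strain and whose intact form encodes another granule tryptase, had 878, 1047 and 1135 counts in PEox and 2597, 2208 and 2206 in Vehicle. Its log2 fold change was -1.16 ± 0.12 (SE; adjusted p by edgeR = 0.000171). Tpsab1 thus exceeded Tpsb2 in raw counts in every PEox library and fell short of it in every Vehicle library. The log2 ratio of Tpsab1 to Tpsb2 was 0.73 ± 0.14 in PEox and -1.45 ± 0.17 in Vehicle (SD, n = 3 each; exact permutation p = 0.1, the smallest possible, adjusted p = 0.175). Tpsg1, a membrane-anchored tryptase, fell by 2.97 ± 0.36 (SE) in log2 terms (adjusted p by edgeR = 0.000367), and its ratio to Tpsb2 was -4.20 ± 0.52 in PEox and -4.51 ± 0.25 in Vehicle (SD, n = 3 each; exact permutation p = 0.4, adjusted p = 0.467).

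Cma1, Mcpt1, Mcpt2 and Mcpt4 lie in the chymase cluster of chromosome 14, which runs on through Mcpt8 and Ctsg to the granzyme genes. Of 17 genes from Cma1 to Gzmb, 12 had a count, 9 were tested, 6 fell and none rose. Mcpt8, a basophil protease, had no count in PEox and 38, 26 and 21 counts in Vehicle, at least 9.19-fold lower in PEox (adjusted p by edgeR = 0.0064). Ctsg, cathepsin G of mast cells and neutrophils, had none in PEox and 28, 43 and 39 in Vehicle, at least 12-fold lower (adjusted p by edgeR = 0.00397). At the far end of the cluster, the granzyme genes of cytotoxic lymphocytes Gzmc and Gzmb fell by 4.28 ± 0.22 and by 2.44 ± 0.10 (SE) in log2 terms (adjusted p by edgeR = 5.62e-06 and 2e-06). The chymases are similar in sequence, with 85.7% identity over 974 aligned bases of the Mcpt1 and Mcpt4 transcripts and 82.3% over 960 of Mcpt1 and Mcpt2. No stretch of 150 bases, the read length, was shared exactly with a transcript of another gene for any of the 10 genes. At 50 bases, 5.48% of the Mcpt4 windows recurred in Cma2 or Mcpt9, 5.38% of the Cma1 windows in Gm48934 and 2.69% of the Ms4a2 windows in Ms4a4b. How the counting treated such reads, and whether it used strand, was not given in the sources used here.

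Other genes of these cells were grouped by role. Of the other serine proteases 4 were tested and all 4 fell, with a median log2 fold change of -3.09 when genes without PEox counts are set to their bound (-5.39 as fitted). Among 12 transcription factors and growth factor receptors 11 were tested, of which 3 fell and 2 rose (median -0.53). Gata2, the GATA factor that mast cells and basophils depend on, had 5.75 ± 1.34 CPM in PEox and 5.77 ± 0.71 CPM in Vehicle (SD, n = 3 each). Its log2 fold change was -0.01 ± 0.23 (SE; adjusted p by edgeR = 0.988), and its sign turned under several alternatives, to 0.13 with library size scaling. Gata1 and Mitf lay at -0.93 ± 0.53 and -0.53 ± 0.25 (SE) and did not pass (adjusted p by edgeR = 0.227 and 0.133). Kit, the stem cell factor receptor of mast cells that ILC3s also carry, went the other way, at 418.4 ± 53.8 CPM in PEox and 222.9 ± 14.3 CPM in Vehicle (SD, n = 3 each). Kit rose by 0.91 ± 0.09 (SE; adjusted p by edgeR = 0.000142). Csf2rb, the shared beta chain of the IL-3, IL-5 and GM-CSF receptors, rose by 0.70 (adjusted p by edgeR = 0.00127), and Il1rl1, the IL-33 receptor, fell by 0.59 (adjusted p by edgeR = 0.00201). Il3ra, the alpha chain of the IL-3 receptor, fell by 0.64 (adjusted p by edgeR = 0.0356). The Il3ra call was lost under library size scaling (0.081), with the replicate number as a block (0.0504) and after removal of the trend on length and GC (0.108).

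Signalling genes below the IgE receptor split, with 4 of 14 falling, 4 rising and 6 not passing (median 0.04). Besides Fcer1g, the kinase gene Btk fell by 1.50 ± 0.33 and Rasgrp4, a Ras activator known from mast cells, by 1.13 ± 0.23 (SE; adjusted p by edgeR = 0.00771 and 0.00529). Syk, the kinase recruited to the gamma chain, fell by 1.04 ± 0.33 (SE; adjusted p by edgeR = 0.038). That call was lost without PEox library 3 (adjusted p = 0.0807), Vehicle library 1 (0.0888), Vehicle library 2 (0.0781) or Vehicle library 3 (0.134), under library size scaling (0.0618) and without a filter (0.0563). Inpp5d, the inhibitory phosphatase SHIP-1, rose by 0.99 ± 0.09 (SE; adjusted p by edgeR = 7.92e-05).

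Of the histamine and granule genes 6 of 8 were tested, with 1 falling and 1 rising (median -0.32). Ndst2, which sulphates heparin in mast cell granules and is expressed widely, rose by 0.83 ± 0.11 (SE; adjusted p by edgeR = 0.000582). Hrh2, a histamine receptor gene, fell by 1.51 ± 0.49 (SE; adjusted p by edgeR = 0.0419). The Hrh2 call was lost on leaving out any 1 library other than PEox library 2 (adjusted p up to 0.151), under library size scaling (0.0563) and without a filter (0.0667). Slc18a2, which loads amines into granules, had 592, 584 and 1202 counts in PEox and 482, 406 and 619 in Vehicle and did not pass (log2 fold change 0.69 ± 0.29, SE; adjusted p by edgeR = 0.104).

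Genes of prostaglandin D2 and leukotriene synthesis gave 2 lower and 1 higher of 7 tested (median 0.20). Alox5, 5-lipoxygenase, fell by 1.61 ± 0.32 (SE; adjusted p by edgeR = 0.00478), and its partner Alox5ap by 0.75 ± 0.19 (SE; adjusted p by edgeR = 0.0157). Alox5ap lost its call without Vehicle library 1 (adjusted p = 0.0643) or 3 (0.0522) and after removal of the trend on length and GC (0.227). Hpgds, the haematopoietic prostaglandin D synthase gene, rose by 0.48 ± 0.12 (SE; adjusted p by edgeR = 0.0143), a call lost without Vehicle library 1 (0.0542) or 3 (0.0569). Surface genes gave 2 lower and 1 higher of 8 tested (median -0.60). Cd200r3, an activating receptor of basophils and mast cells, fell by 1.14 ± 0.25 (SE; adjusted p by edgeR = 0.0074). Itgb7, an integrin chain of gut-homing leukocytes generally, fell by 0.48 (adjusted p by edgeR = 0.00159). Cd33, a lectin of myeloid cells, rose, with 243, 289 and 250 counts in PEox and 37, 94 and 66 in Vehicle (adjusted p by edgeR = 0.00471). Among the cytokine genes, 3 of 6 were tested and 0 passed in edgeR (median -0.44). Il4 alone had an unadjusted p under 0.05, with a log2 fold change of -0.44 (adjusted p by edgeR = 0.102) that turned to 0.06 after removal of the trend on length and GC. Il5 lay at -1.40 (adjusted p by edgeR = 0.171) and its groups overlapped. Il6 lay at 0.80 (adjusted p by edgeR = 0.114) and passed without PEox library 1 (1.02, adjusted p = 0.0434), while Il3 and Il9 had no count in any library.

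**Figure D3:**
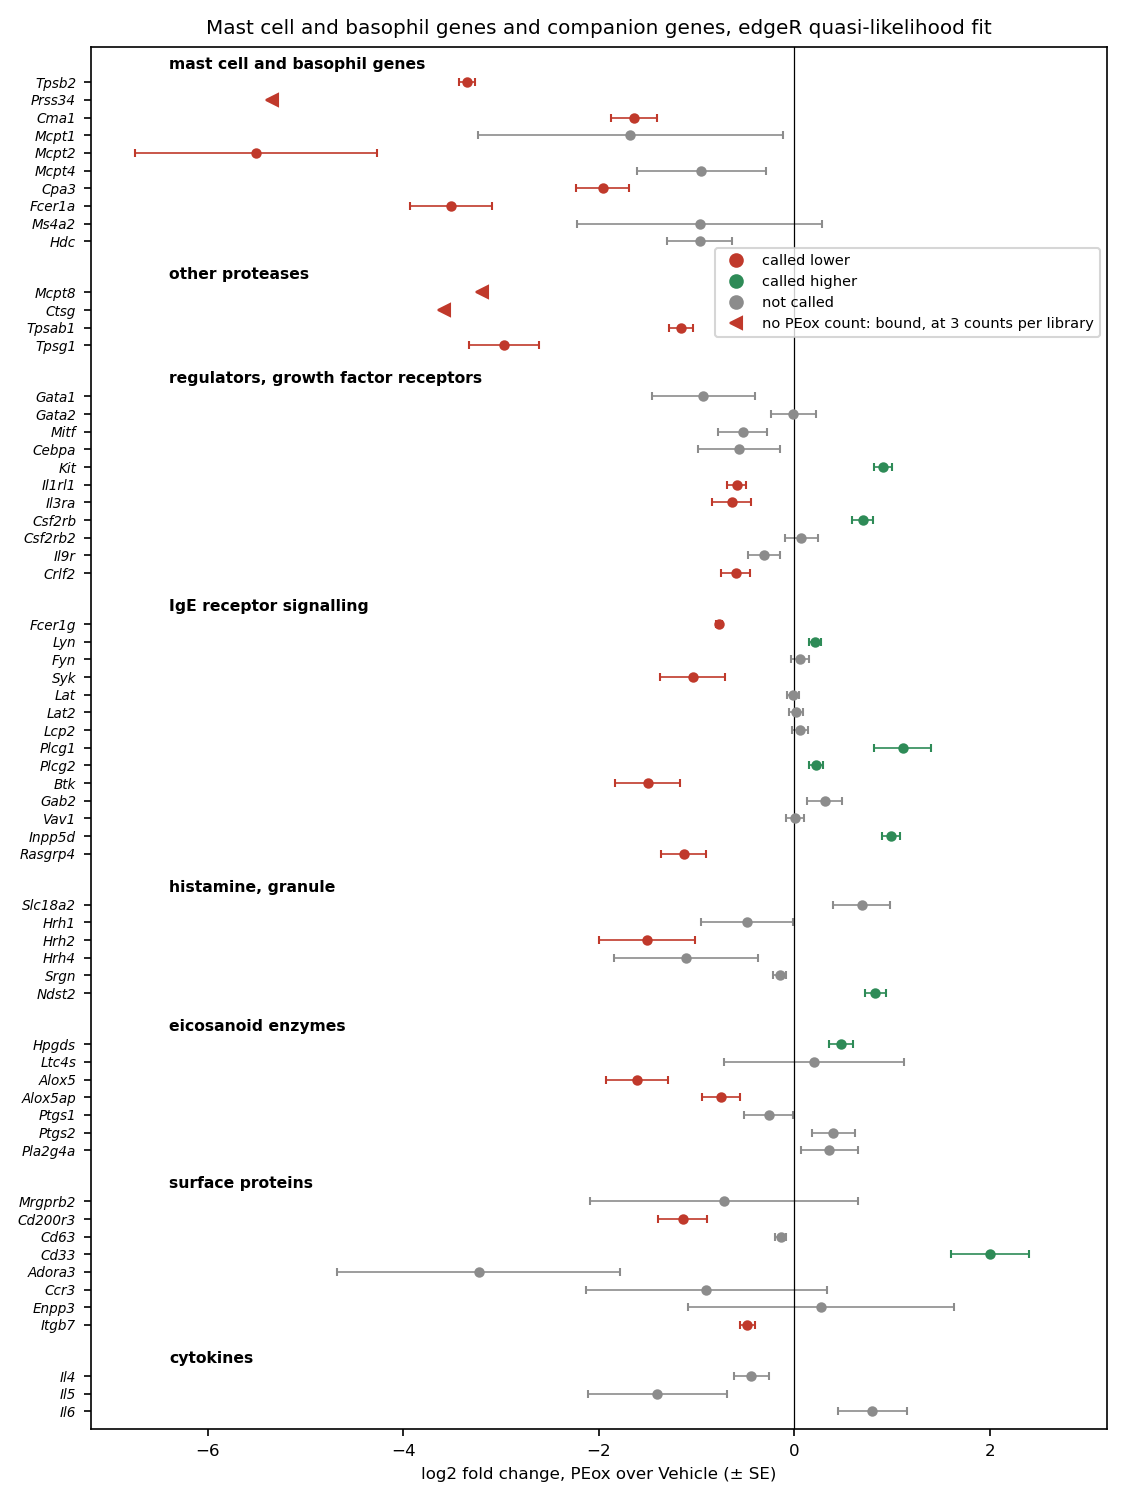
Log2 fold change of PEox over Vehicle (horizontal axis; points ± SE from the edgeR fit over 6 libraries) for the 10 genes, at the top, and for the companion genes that were tested, by role. Red marks genes lower and green genes higher at an adjusted p under 0.05, grey the rest; left-pointing triangles are bounds for Prss34, Mcpt8 and Ctsg, which had no PEox count. Of the 10 genes, Prss34, Mcpt2, Fcer1a and Tpsb2 lie farthest to the left, while the protease gene Mcpt4 lies at -0.95 and was not called. Gata2 sits at -0.01 and Kit at 0.91.

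Markers of other cells moved in the same libraries. B and plasma cell markers summed to 34.4 to 40.4 CPM in PEox and 256.2 to 278.5 CPM in Vehicle, with 6 of 6 lower. T cell markers summed to 39.3 to 43.3 CPM in PEox and 104.7 to 113.2 CPM in Vehicle (5 of 6 lower), and markers of natural killer cells and ILC1s to 59.7 to 66.1 CPM in PEox and 174.1 to 187.3 CPM in Vehicle (5 of 6 lower). Macrophage and monocyte markers summed to 84.8 to 112.6 CPM in PEox and 200.8 to 211.1 CPM in Vehicle (6 of 8 lower), and dendritic cell markers to 39.5 to 44.9 CPM in PEox and 64.1 to 70.7 CPM in Vehicle (2 of 4 tested lower). Neutrophil markers, at 19.6 to 50.7 CPM in PEox and 17.7 to 47.6 CPM in Vehicle, overlapped (3 of 8 lower). Cd8a of the T cell list, Siglech of the dendritic cell list and Elane of the neutrophil list were at 0 in all PEox libraries. Clec9a was at 0 in all libraries of both groups. Of the 8 neutrophil markers 5 had a negative log2 fold change. The neutrophil genes S100a8, S100a9 and Retnlg lay at 0.30, 0.38 and 0.28 and did not pass (adjusted p by edgeR = 0.78, 0.672 and 0.78). Stromal markers ran the other way, at 246.2 to 271.4 CPM in PEox and 92.0 to 101.8 CPM in Vehicle (4 of 5 higher), as did erythroid markers, at 5121 to 5808 CPM in PEox and 2754 to 2802 CPM in Vehicle (5 of 6 higher). Eosinophil markers summed to 6.37 to 8.21 CPM in PEox and 3.77 to 4.50 CPM in Vehicle, with 1 of 2 tested higher and the defining gene Epx at 0 in all libraries. The part of these cells in the fall of the mast cell and basophil genes was not tested.

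**Figure D4:**
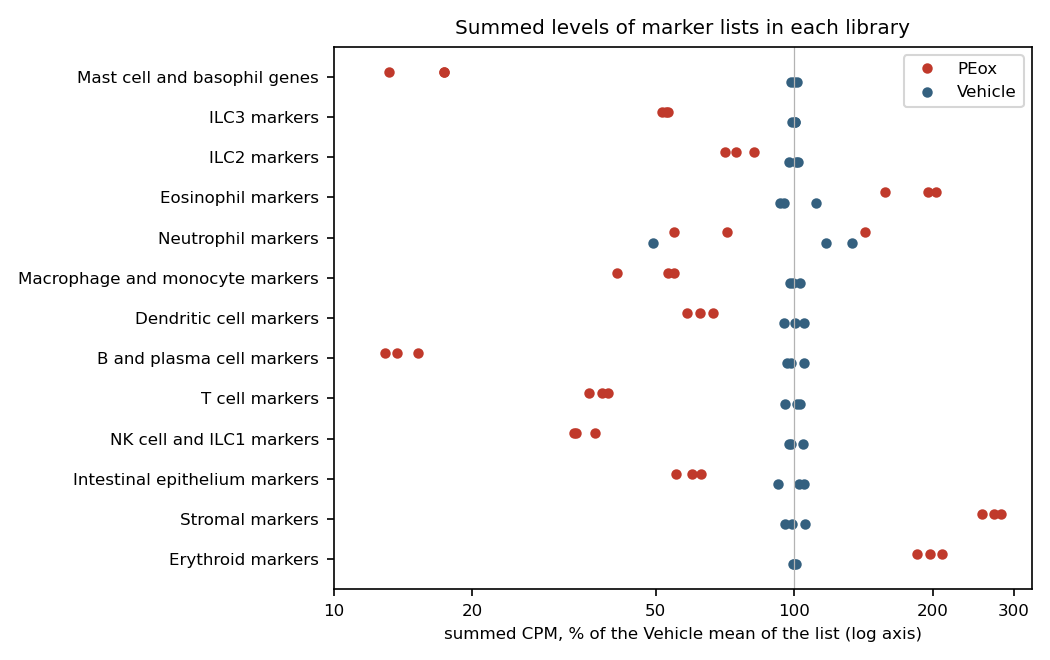
Summed CPM of each marker list in each library, as a percentage of the mean of the Vehicle libraries for that list (horizontal log axis; PEox red, Vehicle blue, 1 point per library). The mast cell and basophil genes stand at 13.2% to 17.4% in PEox, B and plasma cell markers lie nearby, and stromal and erythroid markers lie above 100%.

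The ILC3-associated genes Il7r, Il23r, Il22, Il17f, Il1r1 and Ahr, several of which other lymphocytes also express, summed to well above every list of other leukocytes, at 4175 to 4310 CPM in PEox and 8013 to 8127 CPM in Vehicle (1 of 6 lower, 1 higher). Erythroid markers, at 5121 to 5808 CPM, summed higher than these genes in PEox. Il22 fell by 1.42 in log2 terms and Il17f rose by 0.75 (adjusted p by edgeR = 3.79e-07 and 3.33e-06). Il7r, Il23r, Il1r1 and Ahr lay at -0.17, -0.08, 0.07 and -0.11 and did not pass (adjusted p by edgeR from 0.0511 to 0.446). Only Il22 was called lower, so the lower sum need not reflect the share of ILC3s. ILC2 markers summed to 385.6 to 445.7 CPM in PEox and 530.1 to 555.1 CPM in Vehicle (4 of 6 tested lower), and intestinal epithelium markers to 58.3 to 66.1 CPM in PEox and 97.4 to 110.9 CPM in Vehicle (3 of 5 tested lower). Libraries held 56252806 to 57532484 counts in PEox and 59524577 to 66849230 in Vehicle. Of the genes called, 49.3% were higher with TMM scaling, 61.9% under library size scaling and 61.2% after removal of the trend on length and GC, and both alternatives moved the median of all genes to 0.14. Transcripts of the 10 genes measured 998 to 2392 bases, and tested genes within that range had a median log2 fold change of -0.18, with 27.1% lower. With that trend removed, 6 of the 10 genes were still lower, among them Tpsb2 at -2.91, Fcer1a at -3.17, Cpa3 at -1.71 and Cma1 at -1.21 (adjusted p by edgeR = 5.43e-07, 0.000661, 0.0017 and 0.00619).

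The genes whose profile over the 6 libraries lay closest to that of Tpsb2, among 13737 genes averaging 1 CPM or more, were Igkc, Stmn1, Ccl2, Neil3 and Cdk1. Likeness was the Euclidean distance between centred log2 CPM values, which ran from 0.336 for Igkc to 0.474 for Cdk1, and it rests mainly on the difference between the groups. Igkc, the kappa light chain constant gene of B cells, averaged 14.6 CPM in PEox and 170 CPM in Vehicle. Stmn1, nearly as close at 0.34, averaged 33.7 CPM in PEox and 313.2 CPM in Vehicle. Ccl2, Neil3 and Cdk1 averaged 7.23, 1.22 and 4.69 CPM in PEox and 61.9, 11.3 and 42.7 CPM in Vehicle.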

How the data were processed

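Per the labels' protocols, total RNA was sequenced as paired reads of 150 bp, cleaned with fastp and aligned with HISAT2 2.0.5. The tool edgeR 3.22.5 is listed too, per the submitters' processing notes. Which counter, build, annotation and strand setting gave the table is not given in the sources used here. As deposited by the authors, the file holds raw counts per gene for 55401 identifiers, with no normalization. Columns were matched to samples by title, and identifiers to symbols through a GENCODE M21 table.

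Counts were fitted in R 4.3.3 with edgeR 4.0.16: filterByExpr left 18253 genes, TMM factors ran from 0.951 to 1.05, and the robust quasi-likelihood test set PEox against Vehicle, Benjamini-Hochberg adjusted over all tested genes at 0.05. CPM values use the TMM factors. Standard errors are the log2 fold change over the root of F. Lengths are those of the longest coding GENCODE transcript. Profile distances used log2(CPM + 0.05). Libraries held 56252806 to 66849230 counts, so that 3 counts equal 0.0449 to 0.0533 CPM before TMM scaling; the bounds for genes without a PEox count use 0.0504 CPM, the PEox mean of this floor with TMM scaling. Counts of replicates differed by more than sampling noise (chi-square per gene 16.6 to 38.9 within groups), and each library was kept as 1 replicate.

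Named genes were the 10 genes, at least the 2 with the smallest p in each of 7 companion lists, and the 5 nearest profiles; Gzmc, Gzmb and the other cluster neighbours were named after their values were seen. The genes and lists were chosen with earlier results of these data known, and 1 gene of the ILC3 marker list is not reported here and was left out of its sum. Alternatives were RLE and library size scaling, no filter, a filter of 1 CPM in 3 libraries, DESeq2 1.42.0, the replicate number as a block, and each library left out; removal of each library's loess trend (span 0.5) on transcript length and GC content was added after the data were seen. On data simulated for PEox against Vehicle (17539 genes), the fit called 60.4% of genes changed by 1 and 68.8% of those changed by 2 on the log2 scale, and 7 of 17350 unchanged genes. Only 96 and 93 tested genes were changed by these sizes, a far smaller share than the 37.1% called in the data. These rates therefore need not hold for this comparison.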

Additional observations from a re-analysis of the deposited data

How the results depend on the processing

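Across 13 alternatives the 10 genes gave 128 fold changes, all below 0; 124 kept their side of the threshold, 4 gained a call and 0 lost one. The count of the 10 genes called lower was 6 or 7, and 0 were called higher in any alternative. Hdc passed with a filter of 1 CPM in 3 libraries (-0.96), with DESeq2 (-0.96) and without PEox library 1; it ran from -1.34 to -0.71 when each library was left out. Mcpt1 passed without PEox library 3, and ran from -8.80 to -1.10 over the same omissions; at the low end both remaining PEox libraries are at 0, so that value is no bound. Mcpt1 and Mcpt2 have no value under the filter of 1 CPM in 3 libraries. Gata2, which did not pass under any alternative, turned sign with RLE scaling (1e-04) and library size scaling (0.13) and ran from -0.22 to 0.10 when each library was left out. Il4 turned to 0.0636 once the trend on length and GC was removed. The causes were not tested. Of 362 alternative values for 28 companion genes, 336 kept their side and direction.

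PEox and Vehicle libraries share replicate numbers but the deviations of equally numbered libraries from their group means correlated at only -0.006 to 0.014, so the numbers are not taken as pairs. With the number as a replicate block, 6 of the 10 genes were called lower and 6159 genes in all, against 6775 without it. With the block Slc18a2 gained a call (0.63, adjusted p by edgeR = 0.0483). Counts of Mcpt1, Mcpt4 and Ms4a2 scattered widely among the PEox libraries, which limits what these genes can show.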
